A study of Nothobranchius furzeri with 16 samples.

Results

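Of the 26739 annotated genes counted in killifish (Nothobranchius furzeri) brain, 37 were lower in every library of young fish of the strain MZM-0410 than in all 12 other libraries and did not separate the 2 older ages of that strain. They were chosen on these values. Levels are counts per 1000000 (CPM), that is, the count of a gene relative to the total of its library, not corrected for gene length. A gene was taken when its lowest CPM in the 12 other libraries was more than 25% above its highest CPM in the 4 libraries of MZM-0410 at 5 weeks post-hatching (wph), when its ranges at 12 and 39 wph overlapped, and when its mean at 12 wph was 2 CPM or more. The gap was met by 58 genes. In 9 of these the ranges at 12 and 39 wph did not overlap and in 2 more the mean was too low, which left 47. The rule also left out 19 genes by identifier, and 10 of the 47 were among these, such as FKBP5 and KLF9. The remaining 37 genes are described here. A name was held for 30 of them, with 29 different symbols since ZBTB16 was carried by 2 genes, and 7 had none. Symbols are those of human orthologues.

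The 16 libraries of total brain RNA fall into 4 groups of 4: MZM-0410 at 5 wph (young, sexually mature), at 12 wph (adult) and at 39 wph (old), and the strain GRZ at 5 wph. MZM-0410 is a strain derived from wild fish and GRZ is an inbred laboratory strain known for its short life. All groups share a fasted state and the hour of the morning at which fish were sacrificed, RNA was taken from protein lysates of the brain, and stranded libraries were made after removal of ribosomal RNA. GRZ was sampled at 1 age only, so that in any comparison with MZM-0410 at 12 or 39 wph strain and age cannot be told apart.

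Among the named genes, 8 were on a list of immediate early genes and 4 on a list of genes that respond to glucocorticoids. Both lists were written with results of these samples known. Immediate early genes are transcribed within minutes of a stimulus, without new protein synthesis, and many encode transcription factors or proteins that shut the signal off again. In the brain they follow neuronal activity. Glucocorticoids, the steroid hormones of the stress axis and of the daily rhythm, act through a nuclear receptor on another set, to which ZBTB16, CEBPB and DUSP1 belong in mammals. Both sets hold negative regulators, such as phosphatases that act on MAP kinases and proteins that destabilise messenger RNA.

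Library totals, in units of 1000000 counts, were 3.93, 8.24, 4.63 and 4.60 in young MZM-0410, while the adult group had 5.48 to 9.45, the old group 8.27 to 8.74 and GRZ 8.80 to 10.6. At least 1 count was found for 20608 to 21603 genes in a library. Thus 3 of the 4 young MZM-0410 libraries were the shallowest of all, and 34 genes met the rule when all libraries were thinned to the smallest total, of which 25 were among the 37. The libraries held neuronal and glial RNA, with SNAP25 at 828 to 1163 CPM and GFAP at 316 to 681 CPM. The genes named MBP, GAD1 and SLC17A6 ranged from 93.6 to 612 CPM. By contrast, the gene named SYT1, also a neuronal marker, was at 0 to 2.38 CPM. No gene carried the name SLC1A2 or STMN2, the other markers looked for. Summed over 36 genes named as cell cycle markers, the young MZM-0410 libraries held 941 to 1042 CPM, above all others (593 to 728 at 12 wph, 482 to 558 at 39 wph and 775 to 914 in GRZ). For 20 progenitor and immature neuron genes the sums were 1246 to 1332, 859 to 1019, 847 to 960 and 1129 to 1254 CPM in the same order. Sums at 39 wph lay below GRZ for neurons (4608 to 5123 against 5647 to 5761 CPM) and oligodendrocytes (1981 to 2534 against 2992 to 3495 CPM). The same held for astrocytes and radial glia (3371 to 3768 against 3806 to 4461 CPM). It also held for erythrocyte genes (107 to 179 against 253 to 435 CPM) and skeletal muscle genes (85.0 to 109 against 192 to 273 CPM). For 6 microglia and macrophage genes, from 5 of 23 symbols, the sums at 39 wph lay above GRZ (247 to 293 against 202 to 228 CPM). The endothelial and pericyte list held 25 genes, of which 2 were among those left out by identifier. Its sum was 1147 to 1282 CPM in young MZM-0410, 1443 to 1590 at 12 wph, 1270 to 1614 at 39 wph and 1486 to 1673 in GRZ. The sum of the 2 pituitary genes with a name, of 12 symbols on that list, was 164 to 186 CPM in young MZM-0410, 220 to 762 at 12 wph, 170.5 to 519 at 39 wph and 244 to 282 in GRZ, and both genes were higher than in young MZM-0410 in each of the 3 other groups (edgeR, median log2 fold change 2.72 at 12 wph, 2.24 at 39 wph and 1.48 in GRZ). None of the 37 genes was on any of these lists. The part of these differences, or of depth, in the low young values or in the comparisons of GRZ with the older groups was not tested. In bulk tissue fewer cells of a type and less RNA per cell cannot be told apart.

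The gap itself was narrow for most genes. The ratio of the lowest other library to the highest young one ran from 1.252 to 2.37 with a median of 1.41, and 10 genes reached 1.5. Just inside the factor lay MAGIX (1.252), an unnamed gene (1.255) and P4HA2 (1.256), and just outside lay RGL3 (1.249), TSC22D2 (1.248) and GRASP (1.246), which are not among the 37. The rule took 90 genes when a factor of 1.1 was asked for and 10 with a factor of 1.5. The young library with the highest value was replicate 15 in 15 genes, replicates 11 and 12 in 9 each and replicate 14 in 4, and without replicate 15 the rule took 60 genes.

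**Figure D1:**
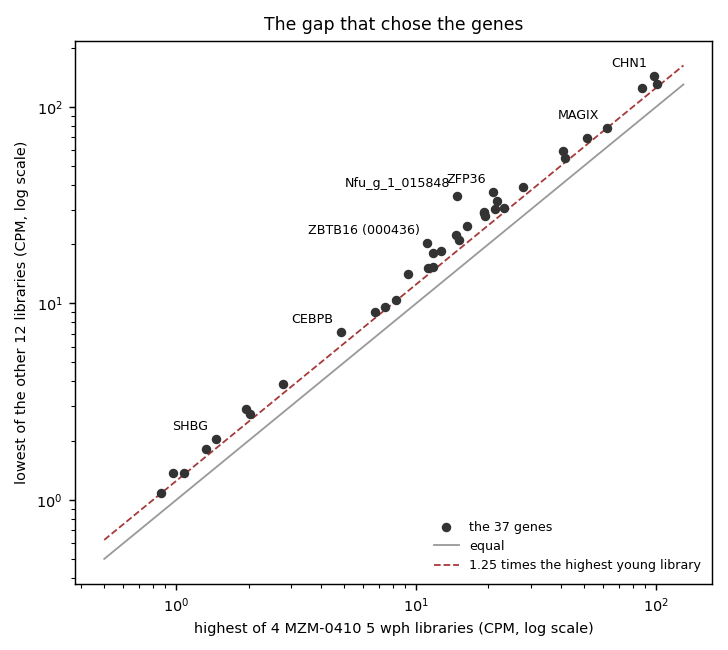
Highest CPM in the 4 libraries of MZM-0410 at 5 wph (horizontal, log scale) against the lowest CPM in the other 12 libraries (vertical, log scale), 1 point per gene. All 37 points lie above the dashed line, which marks 25% above the highest young library, and most lie close to it, with a median ratio of 1.41 and a highest ratio of 2.37.

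Beyond the gap, the 37 genes differed in level and in size of the step. The mean at 12 wph was under 5 CPM in 5 genes, from 5 to under 25 in 10, from 25 to under 100 in 19 and 100 CPM or more in 3 (CHN1, MCL1 and TIPARP). In 5 genes at least 1 young library held 3 counts or fewer, and these are described by their counts. Over the 32 others the group mean lay 1.55 to 7.27 times above that of young MZM-0410 at 12 wph (median 2.38, 23 genes at 2-fold or more), 1.56 to 7.27 times at 39 wph (median 2.50, 23 genes) and 1.38 to 4.78 times in GRZ (median 2.11, 18 genes). The rule chose these differences, so they carry no test. The mean was highest at 39 wph in 18 genes, at 12 wph in 12 and in GRZ in 7, and among the 3 higher groups it was lowest in GRZ in 20, at 39 wph in 9 and at 12 wph in 8.

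**Figure D2:**
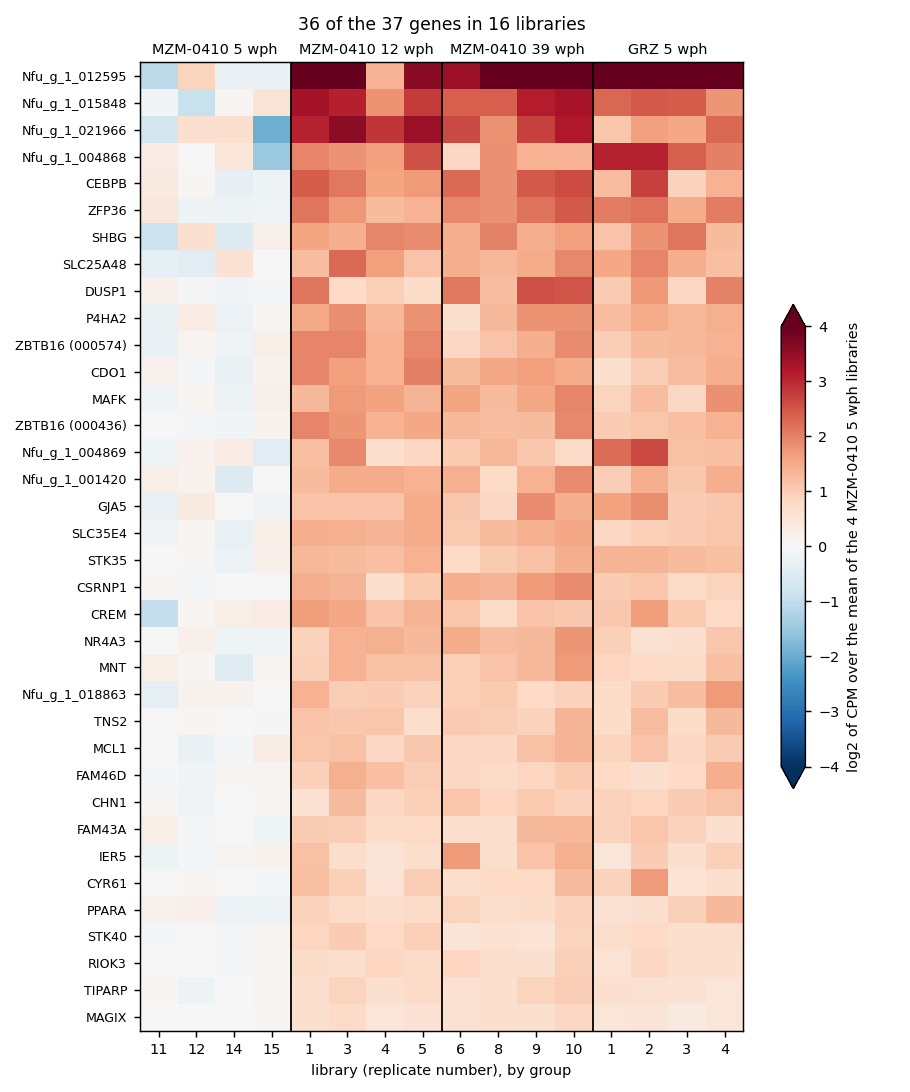
Of the 37 genes, 36 (rows, ordered by their mean difference) in the 16 libraries (columns, by group and replicate number), as log2 of CPM over the mean of the 4 young MZM-0410 libraries; values past 4 are drawn in the darkest colour. The 4 columns on the left are pale or blue and the 12 others red, by construction, and within the red block 39 wph replicate 10 is the darkest of its group in most rows.

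Within a group, the same libraries were high or low in many of the genes. At 39 wph replicate 10 was the highest of its group in 27 of the 37 genes and replicate 8 the lowest in 19. Replicate 4 was the lowest at 12 wph in 23 genes, and GRZ replicate 2 was the highest of its group in 18. The share of all genes in which these libraries were highest or lowest was not counted. Over genes with 20 counts or more in a pair of libraries, GRZ replicate 4 differed most from its group. The chi-square per gene between its counts and those of another GRZ library was 7.67 to 8.29. In the other GRZ pairs it was 4.00 to 6.70. The median deviation of the 37 genes from their group mean, on the log2 scale, was 0.29 in 39 wph replicate 10 and -0.21 in replicate 8. It was -0.15 in 12 wph replicate 4 and 0.13 in GRZ replicate 2. Over 16821 genes of 2 CPM or more it was -0.01, 0.01, 0.00 and -0.01 in the same libraries. The coefficient of variation within a group also had a higher median in the 37 genes (15.8% at 5 wph, 16.6% at 12 wph, 18.7% at 39 wph and 19.3% in GRZ) than in those 16821 genes (11.03%, 10.8%, 10.4% and 10.9%). The rule itself acted on the extremes of the groups, and its overlap of 12 and 39 wph is met more easily by wide ranges. The 16821 genes met no such condition and were not matched in level, so this difference was not tested. In what follows, the values of a group stand in the order of its replicate numbers, which are 11, 12, 14 and 15 at 5 wph, 1, 3, 4 and 5 at 12 wph, 6, 8, 9 and 10 at 39 wph and 1 to 4 in GRZ.

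The rule put the same floor, the highest young value, under GRZ and under the older MZM-0410 groups, and asked in addition for a mean of 2 CPM at 12 wph but not in GRZ, which removed 2 genes. It did not otherwise use the difference between GRZ and the older groups, and this was tested for each gene in fits across all genes. Against MZM-0410 at 12 wph, GRZ differed in 6 of the 37 genes, all lower in GRZ. That is 16.2% of the 37, where 6.34% of all 18092 genes tested were lower, and 0 of the 37 were higher, where 4.71% of all genes were (edgeR quasi-likelihood test, two-sided, Benjamini-Hochberg adjusted p under 0.05). At an unadjusted p under 0.05, 11 were lower and 2 higher, where 5111 of all 18092 genes passed in either direction. DESeq2 called 6 of the 37 lower and 0 higher, where it called 1243 lower and 1052 higher of 20326 genes. The median log2 fold change of the 37 genes was -0.17, beside 0.00 over all genes. The count of lower genes rested on single libraries: it was 3 without 12 wph replicate 1, 2 without 12 wph replicate 3 or 5, 2 without GRZ replicate 1, 3 without GRZ replicate 2 or 3, and 9 without GRZ replicate 4. Over all genes the count of lower genes moved as well, from 571 without GRZ replicate 1 to 1678 without GRZ replicate 4, beside 1147 with all libraries. In 3 of the 37 genes the 4 GRZ libraries lay below all 4 of 12 wph and in 0 above, where 9.02% and 8.82% of all genes did so.

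Against MZM-0410 at 39 wph, 6 of the 37 genes were lower in GRZ (16.2%) and 1 was higher (2.70%), and 30 did not pass the threshold. Of all 18086 genes tested in that comparison 15.8% were lower and 15.4% higher, so that the share of lower genes among the 37 was close to that among all genes and the share of higher genes was smaller. The median log2 fold change was -0.13, beside 0.00 over all genes. At an unadjusted p under 0.05, 12 were lower and 2 higher, where 7746 of all 18086 genes passed in either direction. DESeq2 called 7 of the 37 lower and 1 higher, where it called 2722 lower and 2771 higher of 20329 genes. Lower genes numbered 10 without 39 wph replicate 8, 2 without 39 wph replicate 10, 3 without GRZ replicate 1, 2 without GRZ replicate 3 and 10 without GRZ replicate 4, and higher genes 2 without GRZ replicate 3 or 4. Over all genes the omission of single libraries gave 2070 to 3133 lower and 2112 to 3422 higher. The 4 GRZ libraries lay below all 4 of 39 wph in 3 of the 37 genes and above them in 1, where 15.2% and 14.6% of all genes did so. Both comparisons use the same GRZ libraries and are not independent of each other. Against the 8 older MZM-0410 libraries together, 0 of the 37 genes had all GRZ libraries above and 0 had all below, where 5.01% and 5.57% of the 16821 genes of 2 CPM or more did, and the floor of the rule leaves less room below than above.

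**Figure D3:**
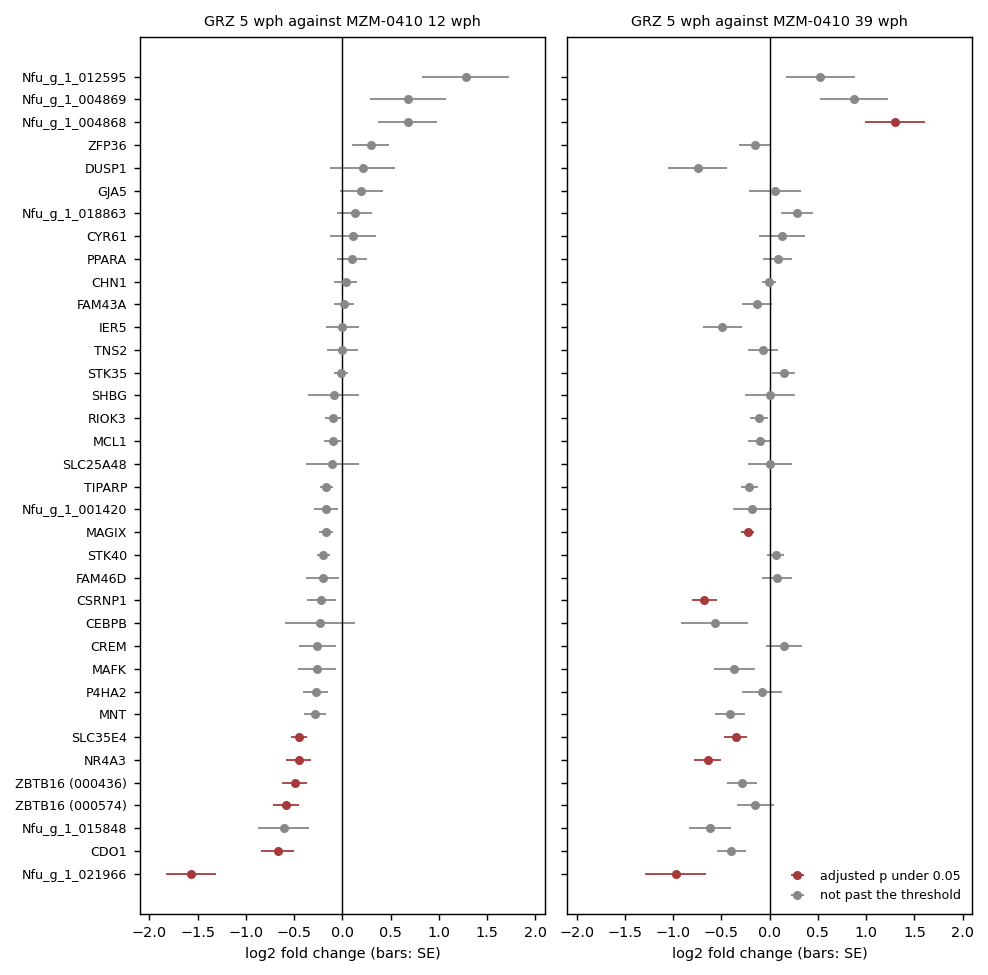
Log2 fold change of GRZ at 5 wph over MZM-0410 at 12 wph (left) and at 39 wph (right) for 36 of the 37 genes, with the SE as bars (n = 4 per group); red points passed the threshold of an adjusted p under 0.05. On the left 6 genes are red, all below 0, and on the right 5 of those drawn are red below 0 and 1 above.

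Of the members that respond to glucocorticoids in mammals, ZBTB16, which encodes the transcriptional repressor PLZF, was present as a pair of genes, and both showed the pattern. The first (Nfu_g_1_000436) was counted at 10.2, 9.83, 9.29 and 11.1 CPM at 5 wph, 39.1, 34.0, 26.3 and 29.6 CPM at 12 wph, 25.1, 23.8, 24.1 and 38.0 CPM at 39 wph and 20.3, 21.7, 23.5 and 26.3 CPM in GRZ. The second (Nfu_g_1_000574) was counted at 13.5, 17.7, 14.9 and 19.1 CPM at 5 wph, 62.8, 63.7, 42.3 and 61.3 CPM at 12 wph, 28.8, 36.2, 44.5 and 60.7 CPM at 39 wph and 32.4, 39.5, 40.4 and 42.4 CPM in GRZ. In both genes the young libraries formed a tight low group, 12 wph was the highest group on average, and GRZ lay near or below the lower edge of 12 wph, with a slight overlap in the second. Relative to young MZM-0410 the first gene stood 3.19-fold higher at 12 wph, 2.75-fold at 39 wph and 2.27-fold in GRZ, and the second 3.53-, 2.61- and 2.37-fold. GRZ was below 12 wph by a log2 fold change of -0.50 ± 0.13 in the first gene (SE, edgeR adjusted p = 0.0333) and of -0.58 ± 0.13 in the second (edgeR adjusted p = 0.0198). Against 39 wph the log2 fold changes were -0.28 ± 0.16 and -0.15 ± 0.19 (edgeR adjusted p = 0.188 and 0.586). The first call was lost without any 1 of 12 wph replicates 1, 3 and 5 and GRZ replicates 1, 2 and 3 (log2 fold change -0.53 to -0.39), and the second without any 1 of 12 wph replicates 1, 3 and 5 and GRZ replicate 1 (-0.54 to -0.50).

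CEBPB (Nfu_g_1_001454), a leucine zipper transcription factor of metabolism and inflammation, had a large step and the widest relative spread in GRZ of the 37. Its libraries held 4.83, 4.00, 3.02 and 3.26 CPM at 5 wph, 20.3, 16.3, 11.4 and 12.2 CPM at 12 wph, 18.1, 13.4, 20.9 and 23.2 CPM at 39 wph and 8.86, 25.2, 7.14 and 9.84 CPM in GRZ. GRZ replicate 2 was above every other library and the 3 other GRZ libraries were below every older MZM-0410 library. The means were 3.98-fold (12 wph), 5.00-fold (39 wph) and 3.37-fold (GRZ) above young MZM-0410, and GRZ did not pass the threshold against 12 wph (log2 fold change -0.23 ± 0.36, edgeR adjusted p = 0.721) or 39 wph (-0.57 ± 0.34, edgeR adjusted p = 0.224).

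DUSP1 (Nfu_g_1_014630), a phosphatase that inactivates MAP kinases, was tight in young fish and scattered in all other groups. Its libraries held 19.3, 16.0, 15.6 and 16.1 CPM at 5 wph, 73.6, 29.1, 32.2 and 27.8 CPM at 12 wph, 73.0, 39.1, 100.4 and 96.7 CPM at 39 wph and 33.5, 56.1, 29.6 and 66.9 CPM in GRZ. Only 12 wph replicate 1 reached the levels of 39 wph, and without it the ranges of the 2 ages would not meet. GRZ ran from the level of the 3 lower libraries of 12 wph into the range of 39 wph and passed against neither (log2 fold change 0.21 ± 0.34 against 12 wph and -0.74 ± 0.30 against 39 wph, edgeR adjusted p = 0.733 and 0.0825).

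**Figure D4:**
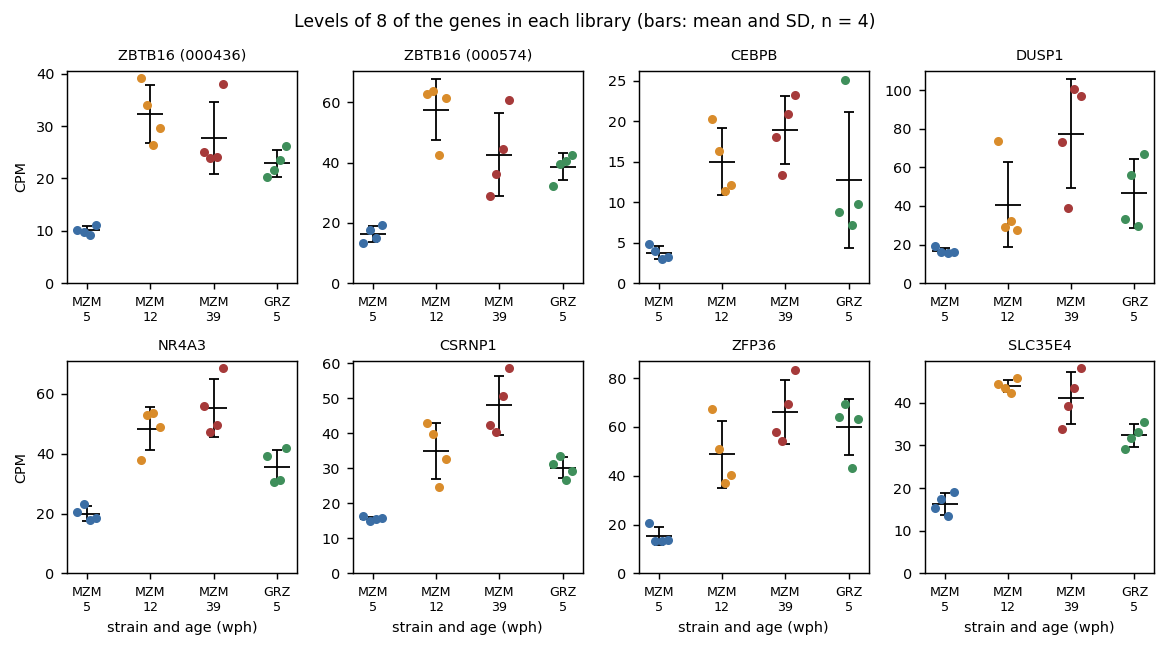
CPM of 8 of the genes in each library, with 4 points per group and bars for the mean and the SD (n = 4); every vertical axis starts at 0. In each panel the 4 young MZM-0410 libraries lie below the other 12, and the GRZ points overlap those of at least 1 older MZM-0410 group.

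Of the 37 genes, 8 were on the list of immediate early genes. NR4A3 (Nfu_g_1_001278), an orphan nuclear receptor induced by activity in mammalian neurons, was counted at 20.3, 23.2, 17.9 and 18.5 CPM at 5 wph, 38.0, 52.8, 53.4 and 49.0 CPM at 12 wph, 55.9, 47.2, 49.4 and 68.4 CPM at 39 wph and 39.1, 30.6, 31.2 and 41.8 CPM in GRZ. It was graded: GRZ lay between young MZM-0410 and 39 wph without meeting either, and met 12 wph only through 12 wph replicate 1. The means were 2.42-fold (12 wph), 2.76-fold (39 wph) and 1.78-fold (GRZ) above young MZM-0410. GRZ was lower than 39 wph by a log2 fold change of -0.64 ± 0.14 (edgeR adjusted p = 0.00515), and lower than 12 wph by -0.45 ± 0.13 at the edge of the threshold (edgeR adjusted p = 0.0483). The call against 39 wph held in all 14 alternatives, and that against 12 wph was lost in 11 of 15, among them the omission of any library but GRZ replicate 4 and 12 wph replicate 1 (log2 fold change -0.49 to -0.38 in the 6 omissions that lost it).

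CSRNP1 (Nfu_g_1_020439), a nuclear protein that binds DNA and is induced by growth signals, was counted at 16.3, 14.9, 15.6 and 15.9 CPM at 5 wph, 42.9, 39.8, 24.8 and 32.7 CPM at 12 wph, 42.5, 40.3, 50.8 and 58.6 CPM at 39 wph and 31.3, 33.6, 26.8 and 29.2 CPM in GRZ. The GRZ libraries lay below all of 39 wph and within the range of 12 wph. GRZ was lower than 39 wph by a log2 fold change of -0.68 ± 0.13 (edgeR adjusted p = 0.00245), which held in all 14 alternatives, and the difference to 12 wph did not pass (-0.22 ± 0.15, edgeR adjusted p = 0.377).

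The other immediate early members did not pass the test between GRZ and either older group. MAFK (Nfu_g_1_007579), a small Maf protein that pairs with other leucine zipper factors, ranged from 8.64 to 11.7 CPM in young MZM-0410, 24.7 to 32.8 CPM at 12 wph, 23.9 to 38.8 CPM at 39 wph and 17.9 to 35.3 CPM in GRZ. CREM (Nfu_g_1_013232), a transcription factor that responds to cyclic AMP, ranged from 2.80 to 6.74 CPM in young MZM-0410, with replicate 11 well below the rest, 11.9 to 17.2 CPM at 12 wph, 9.07 to 11.9 CPM at 39 wph and 9.40 to 17.1 CPM in GRZ. IER5 (Nfu_g_1_007263), an immediate early response protein, ranged from 5.85 to 7.40 CPM, then 9.73 to 15.3, 10.9 to 22.1 and 9.54 to 13.5 CPM in the same order of groups. In CREM 39 wph was the lowest of the 3 higher groups while in IER5 it was the highest.

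TIPARP (Nfu_g_1_003384), a mono-ADP-ribosyltransferase that represses the aryl hydrocarbon receptor, was among the smaller steps, from 81.3 to 101 CPM in young MZM-0410 to 146 to 173 CPM at 12 wph, 143 to 183 CPM at 39 wph and 130.4 to 147 CPM in GRZ. MCL1 (Nfu_g_1_011086), a short-lived protein of the BCL2 family that prevents cell death, ranged from 58.6 to 87.5 CPM in young MZM-0410, 126 to 160.3 CPM at 12 wph, 124 to 182 CPM at 39 wph and 125 to 154 CPM in GRZ. CYR61 (Nfu_g_1_002281), a secreted matrix protein, ranged from 10.0 to 11.2 CPM in young MZM-0410, 15.2 to 23.9 CPM at 12 wph, 17.2 to 25.1 CPM at 39 wph and 15.2 to 34.5 CPM in GRZ. In CYR61, as in CEBPB, GRZ replicate 2 was the highest of all 16 libraries. Over the 6 immediate early members that did not pass in either comparison, the log2 fold changes of GRZ were -0.26 to 0.11 against 12 wph and -0.49 to 0.15 against 39 wph.

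The rest of both lists was examined to see how far the pattern went beyond the members. The shares given beside the lists are over all genes tested, with or without a name. Of the 46 symbols on the immediate early list 29 had a named gene, 34 genes in all. Besides the 8 members and 2 genes left out by identifier (FOSB and the other CSRNP1 gene), 24 remained, and 0 of these met the gap. Of the 23 tested, 13 were higher and 0 lower at 12 than at 5 wph (4.46% and 2.14% of all genes), 19 of 22 were higher and 0 lower at 39 than at 5 wph (12.3% and 12.6%), 10 of 23 were higher and 1 lower at 39 than at 12 wph (3.89% and 5.75%), and 14 of 23 were higher and 0 lower in GRZ than in MZM-0410 at 5 wph (5.44% and 4.69%). NPAS4, a transcription factor specific to neurons, was nearest to the gap with a ratio of 1.215. Against 12 wph, GRZ was higher in 0 and lower in 2 of 23 (4.71% and 6.34% of all genes), and against 39 wph higher in 0 and lower in 8 (15.4% and 15.8%). Those 8 included FOS and JUNB, subunits of the transcription factor AP-1, and EGR1, a zinc finger factor of neuronal activity.

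The glucocorticoid list held 43 symbols, of which 26 had a named gene, 38 genes in all. Besides 4 members and 8 genes left out by identifier, 26 remained and 0 of these met the gap. Of the 25 tested, 13 were higher and 2 lower at 12 than at 5 wph (4.46% and 2.14% of all genes), 16 were higher and 2 lower at 39 than at 5 wph (12.3% and 12.6%), and 7 were higher and 3 lower in GRZ than in MZM-0410 at 5 wph (5.44% and 4.69%). The 2 lower at 12 than at 5 wph were PER1 and PCK1. PER1 was at 87.9 CPM in young MZM-0410, 47.0 CPM at 12 wph, 69.0 CPM at 39 wph and 49.3 CPM in GRZ on average. PCK1 was at 6.13, 1.97, 2.25 and 7.08 CPM in the same order. Between 39 and 12 wph the 25 genes went both ways, with 4 higher and 4 lower at 39 wph (3.89% and 5.75%). GRZ was higher in 0 and lower in 4 against 12 wph (4.71% and 6.34%), and higher in 1 and lower in 8 against 39 wph (15.4% and 15.8%). NR3C1, the glucocorticoid receptor, was at 52.5 CPM in young MZM-0410, 56.0 CPM at 12 wph, 71.9 CPM at 39 wph and 49.5 CPM in GRZ on average. Both lists were written with results of these samples known, so the counts are not independent evidence. They cover only genes with a name, which 30 of the 37 had beside 20.1% of all genes. Shares among named genes alone were not counted, so the lists have no like background here. The other 21 lists, of pathways and cell types, held 0 of the 37. Some held genes left out by identifier, such as 4 on the list of growth arrest and p53 and 2 on that of insulin and FOXO. With these included, the sums of both lists were lower in every young MZM-0410 library than in all 12 others. The sums of most other lists did not set the young libraries apart.

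A further 4 members act on transcription or on messenger RNA. ZFP36 (Nfu_g_1_000759), known as tristetraprolin, binds AU-rich elements and promotes the decay of the messenger. Its libraries held 20.9, 13.5, 13.4 and 13.7 CPM at 5 wph, 67.4, 50.9, 36.9 and 40.3 CPM at 12 wph, 58.0, 54.1, 69.4 and 83.5 CPM at 39 wph and 64.1, 69.5, 43.1 and 63.1 CPM in GRZ. Among young fish replicate 11 stood apart, and the means were 3.18-fold (12 wph), 4.31-fold (39 wph) and 3.90-fold (GRZ) above young MZM-0410. GRZ did not pass against 12 wph (log2 fold change 0.29 ± 0.19, edgeR adjusted p = 0.347) or 39 wph (-0.15 ± 0.16, edgeR adjusted p = 0.499).

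MNT (Nfu_g_1_000276), a repressor that pairs with MAX and opposes MYC, ranged from 16.8 to 28.0 CPM in young MZM-0410, 45.7 to 61.7 CPM at 12 wph, 46.4 to 77.0 CPM at 39 wph and 39.2 to 54.4 CPM in GRZ. PPARA (Nfu_g_1_003546), the nuclear receptor that drives fatty acid oxidation, ranged from 8.64 to 11.8 CPM, then 16.4 to 19.4, 16.4 to 19.2 and 15.3 to 25.3 CPM. FAM46D (Nfu_g_1_014864), of a family of poly(A) polymerases, ranged from 35.8 to 40.9 CPM, then 73.4 to 102, 65.2 to 79.4 and 59.3 to 106 CPM. None of these 3 passed in either comparison of GRZ, and in FAM46D and PPARA the top GRZ value came from replicate 4.

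Kinases and proteins of small GTPase signalling formed another group of members. STK35 (Nfu_g_1_015607), a nuclear serine/threonine kinase, was counted at 18.8, 19.5, 16.2 and 21.8 CPM at 5 wph, 48.2, 46.0, 44.0 and 49.7 CPM at 12 wph, 33.3, 39.8, 43.0 and 51.9 CPM at 39 wph and 48.6, 48.4, 46.1 and 43.7 CPM in GRZ. Its GRZ libraries lay within or next to the range of 12 wph (log2 fold change -0.02 ± 0.07, edgeR adjusted p = 0.919), whereas 39 wph was more scattered. STK40 (Nfu_g_1_010879), a kinase-like protein without activity, ranged from 36.6 to 41.6 CPM in young MZM-0410, 66.2 to 76.8 CPM at 12 wph, 54.8 to 70.7 CPM at 39 wph and 60.0 to 66.3 CPM in GRZ. RIOK3 (Nfu_g_1_012067), an atypical kinase of the RIO family, ranged from 20.1 to 21.3 CPM, then 33.9 to 37.7, 32.1 to 39.8 and 30.3 to 36.9 CPM. Young MZM-0410 varied little in RIOK3 and STK40, and neither gene passed in either comparison of GRZ.

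CHN1 (Nfu_g_1_017551), a Rac GTPase-activating protein of neurons, had overlapping values in the 3 higher groups. Its libraries held 97.4, 85.7, 95.7 and 98.1 CPM at 5 wph, 144, 228, 168 and 184 CPM at 12 wph, 204, 172, 194 and 180.0 CPM at 39 wph and 179, 172, 189 and 208 CPM in GRZ. These groups stood 1.92- to 1.99-fold over young MZM-0410, and GRZ passed against neither 12 wph (log2 fold change 0.04 ± 0.12, edgeR adjusted p = 0.871) nor 39 wph (-0.01 ± 0.07, edgeR adjusted p = 0.933).

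MAGIX (Nfu_g_1_001918), a PDZ-domain protein, showed the smallest step of the 32 genes at 12 wph and in GRZ, and little spread. Its libraries held 59.8, 59.5, 59.2 and 62.2 CPM at 5 wph, 94.6, 103, 84.0 and 90.5 CPM at 12 wph, 92.2, 95.6, 93.4 and 106 CPM at 39 wph and 84.4, 86.4, 77.9 and 83.7 CPM in GRZ. All GRZ libraries lay below all of 39 wph, with a log2 fold change of -0.23 ± 0.07 (edgeR adjusted p = 0.0266). That call was lost without 39 wph replicate 10, GRZ replicate 1 or GRZ replicate 3 (log2 fold change -0.23 to -0.17), and the difference to 12 wph did not pass (-0.17 ± 0.08, edgeR adjusted p = 0.158). FAM43A (Nfu_g_1_002403) ranged from 38.3 to 51.4 CPM in young MZM-0410, 71.8 to 88.6 CPM at 12 wph, 69.8 to 109 CPM at 39 wph and 70.1 to 93.8 CPM in GRZ, and did not pass in either comparison.

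Among the carriers and metabolic genes, SLC35E4 (Nfu_g_1_006369), of a family that carries nucleotide sugars and related molecules, was lower in GRZ than in both older groups. It was counted at 15.3, 17.4, 13.4 and 19.1 CPM at 5 wph, 44.4, 43.4, 42.2 and 45.7 CPM at 12 wph, 33.7, 39.2, 43.4 and 48.1 CPM at 39 wph and 29.1, 31.7, 33.2 and 35.5 CPM in GRZ. GRZ lay between young MZM-0410 and 12 wph without meeting either, and overlapped 39 wph through replicate 6 of that group. The log2 fold change of GRZ was -0.45 ± 0.08 against 12 wph (edgeR adjusted p = 0.00696) and -0.35 ± 0.11 against 39 wph (edgeR adjusted p = 0.0356). The first held without any single library, and the second was lost without 39 wph replicate 9 or 10 or GRZ replicate 1, 2 or 3 (log2 fold change -0.36 to -0.26).

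CDO1 (Nfu_g_1_009390), cysteine dioxygenase, the enzyme that starts the breakdown of cysteine and leads to taurine, was counted at 15.01, 12.5, 10.8 and 14.8 CPM at 5 wph, 51.5, 41.6, 35.1 and 53.6 CPM at 12 wph, 31.7, 38.8, 41.7 and 37.5 CPM at 39 wph and 20.9, 26.1, 31.0 and 36.4 CPM in GRZ. GRZ overlapped 12 wph only in its replicate 4. It was 3.42-fold (12 wph), 2.82-fold (39 wph) and 2.15-fold (GRZ) above young MZM-0410. GRZ was lower than 12 wph by a log2 fold change of -0.67 ± 0.17 (edgeR adjusted p = 0.0321), a call lost without any 1 of 12 wph replicates 1, 3 and 5 and GRZ replicates 1, 2 and 3 (-0.71 to -0.54), and against 39 wph the difference was -0.40 ± 0.15 (edgeR adjusted p = 0.0676).

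SLC25A48 (Nfu_g_1_016651), of the mitochondrial carrier family, had only 4, 8, 9 and 6 counts in the young libraries (0.971 to 1.94 CPM) and 2.91 to 6.24 CPM at 12 wph, 3.27 to 4.92 CPM at 39 wph and 3.02 to 5.11 CPM in GRZ. SHBG (Nfu_g_1_014160), the carrier of sex steroids in blood, had 2, 12, 3 and 5 counts in the young libraries and 15 to 26 counts at 12 wph, 21 to 30 at 39 wph and 18 to 43 in GRZ. At that depth the young values rest on a handful of reads, and neither gene passed in either comparison of GRZ.

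The last named members belong to cell adhesion, vessels and matrix. TNS2 (Nfu_g_1_001548), a tensin of focal adhesions, was counted at 8.65, 9.22, 8.64 and 8.27 CPM at 5 wph, 19.2, 18.3, 18.6 and 14.1 CPM at 12 wph, 17.96, 17.1, 16.5 and 22.1 CPM at 39 wph and 14.4, 20.3, 14.4 and 21.4 CPM in GRZ. The 3 higher groups had nearly the same mean, at 2.02- to 2.12-fold over young MZM-0410. GJA5 (Nfu_g_1_017733), a connexin found in arterial endothelium, ranged from 1.78 to 2.79 CPM in young MZM-0410, 4.75 to 6.09 CPM at 12 wph, 3.87 to 8.02 CPM at 39 wph and 4.42 to 7.92 CPM in GRZ. P4HA2 (Nfu_g_1_005431), a subunit of the collagen prolyl hydroxylase, ranged from 5.34 to 8.25 CPM, then 16.4 to 24.1, 10.4 to 22.8 and 15.7 to 18.6 CPM. None of these 3 passed in either comparison of GRZ, and the low edge of P4HA2 came from 39 wph replicate 6 alone.

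The 7 unnamed genes held the largest steps as well as the fewest counts. Nfu_g_1_015848 was counted at 9.67, 5.58, 11.2 and 14.8 CPM at 5 wph, 104, 88.9, 36.2 and 71.1 CPM at 12 wph, 54.4, 53.6, 91.8 and 100.4 CPM at 39 wph and 50.4, 56.7, 55.0 and 35.0 CPM in GRZ. It had the widest gap of the 37 (2.37) and stood 7.27-fold over young MZM-0410 at both older ages and 4.78-fold in GRZ. GRZ did not pass against 12 wph (log2 fold change -0.61 ± 0.26, edgeR adjusted p = 0.153) or 39 wph (-0.62 ± 0.22, edgeR adjusted p = 0.0508).

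Nfu_g_1_021966 was the member furthest below 12 wph in GRZ. It had 2, 11, 6 and 1 counts at 5 wph, 39, 94, 44 and 67 at 12 wph, 43, 24, 49 and 68 at 39 wph and 16, 26, 26 and 37 in GRZ, or 6.03 to 9.95 CPM at 12 wph and 1.82 to 4.14 CPM in GRZ, which do not overlap. The log2 fold change of GRZ was -1.57 ± 0.26 against 12 wph (edgeR adjusted p = 0.00440) and -0.98 ± 0.32 against 39 wph (edgeR adjusted p = 0.0380). The first held without any single library, and the second was lost without 39 wph replicate 6, 9 or 10 or GRZ replicate 1, 2 or 3 (-0.99 to -0.73).

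Nfu_g_1_004868 went the other way and was the single member higher in GRZ. It had 3, 5, 4 and 1 counts at 5 wph, 13, 20, 14 and 26 at 12 wph, 9, 18, 14 and 14 at 39 wph and 46, 52, 34 and 22 in GRZ. The GRZ libraries lay above all of 39 wph, at 2.46 to 5.22 against 1.08 to 2.18 CPM, with a log2 fold change of 1.30 ± 0.31 (edgeR adjusted p = 0.00877), and the difference to 12 wph did not pass (0.68 ± 0.31, edgeR adjusted p = 0.174). The gene with the next identifier was also among the 37, with 3, 8, 5 and 3 counts at 5 wph, 11, 31, 10 and 11 at 12 wph, 15, 18, 16 and 13 at 39 wph and 36, 54, 21 and 18 in GRZ. Its 2 highest values, 4.09 and 5.41 CPM, were in the same 2 GRZ libraries, replicates 1 and 2, and it passed in neither comparison. Nfu_g_1_012595 had 1, 8, 2 and 2 counts at 5 wph, 65, 88, 10 and 46 at 12 wph, 47, 72, 139 and 155 at 39 wph and 121, 287, 171 and 97 in GRZ. Its 12 wph replicate 4 lay near the young level while the other older libraries were several times higher, and GRZ passed against neither 12 wph (1.28 ± 0.45, edgeR adjusted p = 0.0874) nor 39 wph (0.52 ± 0.36, edgeR adjusted p = 0.286). The 2 remaining unnamed genes ranged from 7.34 to 14.7 CPM in young MZM-0410 and from 18.4 to 42.6 CPM elsewhere, and passed in neither comparison.

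Teleost genomes hold many duplicated genes, and 9 other genes of the table carried the name of a member. Among them, the second CSRNP1 gene met the rule and was left out by identifier, and 1 named CREM held 1 count in all libraries. The remaining 7 did not meet the gap. The third ZBTB16 gene (Nfu_g_1_022092) had means of 45.1 ± 2.81 CPM in young MZM-0410, 59.8 ± 1.37 CPM at 12 wph, 54.2 ± 3.92 CPM at 39 wph and 44.8 ± 5.73 CPM in GRZ (SD, n = 4), so that GRZ stood at the level of young MZM-0410. GRZ was also lower than 12 wph in this gene (log2 fold change -0.42 ± 0.09, edgeR adjusted p = 0.0170). The other PPARA gene (Nfu_g_1_011900) likewise had close means in GRZ and in young MZM-0410, at 55.7 ± 4.35 and 53.4 ± 3.78 CPM, beside 69.3 ± 4.82 CPM at 12 wph, whereas in the member PPARA gene GRZ was the highest group.

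The other TNS2 gene (Nfu_g_1_001655) had group means 1.97-fold (12 wph), 1.67-fold (39 wph) and 1.62-fold (GRZ) above young MZM-0410, and a GRZ range of 65.2 to 121 CPM beside 49.6 to 62.0 CPM in young MZM-0410. The other CHN1 gene (Nfu_g_1_014035) had its highest mean in young MZM-0410, at 59.7 ± 5.15 CPM beside 46.2 to 52.7 CPM elsewhere. The other MAFK, FAM46D and MNT genes had group means between 0.867- and 1.67-fold of the young mean. How reads common to copies were treated was not examined, and these differences between copies were not tested.

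**Figure D5:**
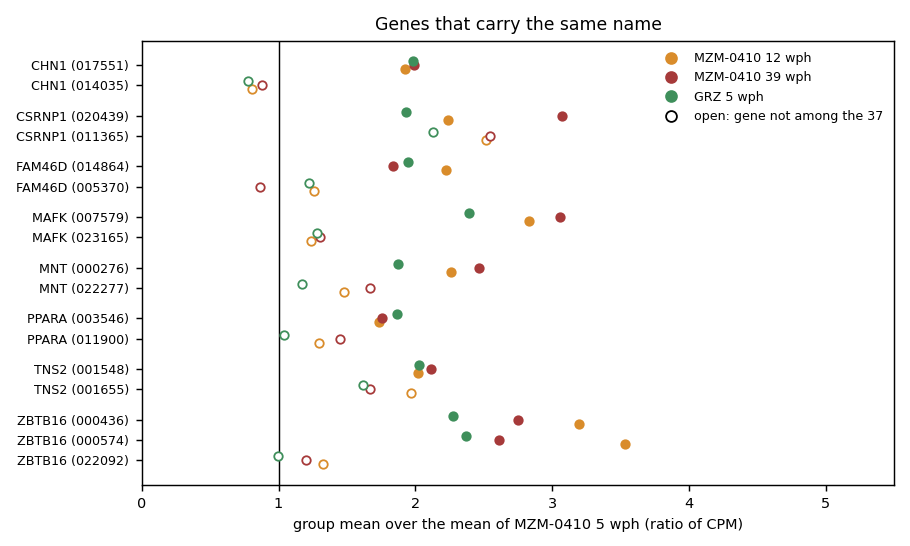
Group means of MZM-0410 at 12 and 39 wph and of GRZ over the mean of MZM-0410 at 5 wph (ratio of CPM; 1 marks the young mean), for members (filled) and for other genes with the same name (open). Among the open points only those of the second CSRNP1 gene exceed 2 in all 3 groups, and those of the third ZBTB16 gene lie at 0.993 to 1.33.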

How the data were processed

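Total RNA of the brain was sequenced in 16 libraries, grouped by the strain and age in the labels. The values are raw counts, deposited by the authors in 1 table with a column for each library. According to the methods and the processing notes of the submitters, bcl2fastq 1.8.4, TopHat2 2.1.0 (genome Nfu_20150522) and featureCounts 1.5.0 (annotation genebuild_v1.150922) were used. The counting ignored strand, so overlapping and antisense genes cannot be told apart by their reads. How reads that match more than 1 copy of a gene were treated was not examined. The study describes samples of single fish. The p-values measure the spread between these libraries.

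Names were taken as identities only from supplementary tables held in part, which gave 1 name to 5369 genes (20.1%). No gene sequence or coordinate was used here, and the reference gene table held 0 of the identifiers.

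CPM were computed on the library total. The comparisons of GRZ with MZM-0410 at 12 and 39 wph were fitted in R 4.3.3 with edgeR 4.0.16 on the 8 libraries of the 2 groups. Genes were filtered with filterByExpr, scaling was by TMM, and the two-sided quasi-likelihood test was adjusted by Benjamini-Hochberg over every gene tested, with a threshold of 0.05. The SE is the size of the log2 fold change over the square root of F. The same fits gave the counts over gene lists in the comparisons with young MZM-0410. The procedure was tested on simulated data. Alternatives were DESeq2 1.42.0, other scalings, no filter, all 16 libraries in 1 fit, thinned counts, a replicate block and the omission of each library. Figures were drawn with matplotlib 3.10.9.

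The members and gene lists were chosen with earlier results of these data known. The rule for naming took members on a list, the 12 with the widest gap, the 12 with the highest level at 12 wph, those past the threshold whose libraries did not overlap, and those next to the factor. RIOK3, SHBG, PPARA, GJA5 and CDO1 fell outside it and were added after their values were seen, as were the other genes with a member's name and the list genes NPAS4, FOS, JUNB, EGR1, NR3C1, PER1 and PCK1. Of the 7 unnamed genes, 4 are given by identifier. The values of 1 named member are not reported here, and it is part of the counts over all 37.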

Additional observations from a re-analysis of the deposited data

Results flagged for a closer look

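In 10 of 148 groups of 4 libraries (37 genes in 4 groups), 1 library lay far from the other 3 by Dixon's criterion; 7.4 are expected at a rate of 1 in 20. At 39 wph there were 3. ZBTB16 (Nfu_g_1_000436) was at 38.0 CPM in 39 wph replicate 10, with the others at 23.8 to 25.1 CPM. CYR61 was at 25.1 CPM in the same library, with the others at 17.2 to 18.2 CPM. CREM was at 9.07 CPM in 39 wph replicate 8, with the others at 11.4 to 11.9 CPM.

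At 12 wph, DUSP1 was at 73.6 CPM in replicate 1 (others 27.8 to 32.2 CPM), the second ZBTB16 gene (Nfu_g_1_000574) was at 42.3 CPM in replicate 4 (others 61.3 to 63.7 CPM), and GJA5 was at 6.09 CPM in replicate 5 (others 4.75 to 4.80 CPM). In GRZ, CEBPB was at 25.2 CPM in replicate 2 (others 7.14 to 9.84 CPM) and FAM46D was at 105.9 CPM in replicate 4 (others 59.3 to 67.1 CPM). In young MZM-0410, replicate 11 was high in 2 genes: ZFP36 at 20.9 CPM (others 13.4 to 13.7 CPM) and DUSP1 at 19.3 CPM (others 15.6 to 16.1 CPM).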

How the results depend on the processing

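Of 187 values of single genes under alternatives, for the 13 gene comparisons past the threshold, 136 kept their direction and call, 51 kept their direction and lost the call, and 0 reversed. GRZ against 12 wph: the count of the 37 genes that were lower was 2 to 9 over the omission of single libraries and 0 were higher throughout, while over all genes 446 to 1482 were higher and 571 to 1678 lower. With all 16 libraries in 1 fit 1440 genes were higher, and with thinned counts 738 were lower. GRZ against 39 wph: 2 to 10 of the 37 were lower and 1 to 2 higher over the omissions, 2 were higher with all 16 libraries fitted and 0 with thinned counts, where 35 of the 37 were tested. The rule itself took 90 genes at a factor of 1.1, 10 at 1.5, and 32 to 60 over the omissions. No setting moved the median log2 fold change of all genes by more than 0.02.

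GRZ and 12 wph libraries share the replicate numbers 1, 3 and 4. The deviations of same-numbered libraries from their group means had correlations of -0.11, 0.01 and 0.03, and those of pairs with unlike numbers -0.08 to 0.10. So few correlations cannot show whether same-numbered libraries share a batch, and the labels do not say. With the number as a block, on the 6 libraries with shared numbers, 0 of the 37 genes were lower, and over all genes 175 were higher and 213 lower. The other groups compared share no numbers.

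The smallest library held 3.93 M counts, and 7 of the 37 genes had a mean under 10 counts in young MZM-0410, which limits how far their step can be measured. The rule used the extremes of 4 libraries and so depends on single fish.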
